A study of Mus musculus with 18 samples.

Results

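Kinesins are microtubule motors, and their genes were followed in cultured mouse sensory neurons that carry 1 or 2 intact copies of a dynein gene. Every row of the deposited gene table whose symbol is Kif with a number, Kifc with a number or Klc with a number from 1 to 4 was taken, which gave 42 of 17198 genes. By known role, 12 are mitotic kinesins, 21 are transport kinesins including the light chains Klc1 to Klc4, and 9 act mainly in cilia or elsewhere. The mitotic kinesin Kif2b was on the list of roles and is not analysed here. RNA was measured in dorsal root ganglion (DRG) neuron cultures from wild-type mice (WT) and from mice heterozygous for the tm1a allele of Dynlrb1 (HET). A tm1a allele is a germline knockout-first insertion that needs no Cre, so it is carried by all cells of the HET cultures, neurons or not. Cultures were collected at 12, 24 and 48 h, with 3 biological replicates in each of the 6 groups and 18 samples in all. By their labels the replicates are 1, 2 and 5 at the first 2 times and 1, 2 and 3 at the last. The age, sex and strain of the mice, and any drug given to the cultures, are not stated in the labels.

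Most kinesins walk toward the fast-growing end of a microtubule, which in an axon points to the tip, while cytoplasmic dynein walks back toward the cell body. Dynlrb1 encodes a light chain of that dynein. In neurons, kinesin-1 (the heavy chains Kif5a, Kif5b and Kif5c with light chains of the Klc group), kinesin-2 (Kif3a, Kif3b, Kif3c and Kif17) and kinesin-3 (Kif1a and Kif1b among others) carry vesicles, mitochondria and other cargo down the axon. Mitotic kinesins build the spindle, move chromosomes and complete cytokinesis. Their genes are transcribed mainly in dividing cells, so in a culture of postmitotic neurons they are usually low. DRG cultures also hold Schwann cells, satellite glia and fibroblasts, which can divide.

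Values below are the authors' normalized counts, and levels between genes are compared only on the deposited FPKM scale (fragments per gene length and library total). Between replicates of a group, r across genes was 0.978 to 0.992 (log2 values). From the deposited values 2 directions among samples had been removed, which may raise this r and lower the SEs and adjusted p below. The sequencing depth is unknown, because the column totals had been equalized (41509705 to 41509874). Dynlrb1 separated the genotypes at each time, with every HET culture below those of WT, for example 3314, 3482 and 3243 in HET and 5995, 5677 and 6372 in WT at 48 h. Neuron markers were present in all samples, and 10 of them summed to 3227 to 4679.5 FPKM. Fibroblast markers (5 genes) summed to 37.7 to 134 FPKM and glial markers (6 genes) to 149.8 to 342 FPKM. None of the markers measured was at 0, but no normalized count of any gene was, so this does not show a cell type. At 48 h, HET replicate 3 stood apart from its group in several members, so results that rest on it are given with and without it.

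Transport kinesins were by far the most abundant members. The mean FPKM over 18 samples was 726 for Klc1, the kinesin-1 light chain typical of neurons, and 308 for Kif21a, a kinesin-4 that restrains microtubule growth. Next came Kif1a at 268, Kif5a at 239, Kif5c at 182, Kif5b at 169 and Kif1b at 169. These 7 genes together took 83.0 to 85.2% of the summed FPKM of all 42 members in each sample. Klc2, another kinesin-1 light chain, stood at 98.5, and the kinesin-2 motors Kif3c, Kif3a and Kif3b at 86.9, 50.3 and 27.5. In this order of levels, the ranges over 18 samples overlapped for 37 of the 41 pairs of neighbours. Klc1 and Kif21a, Kif1b and Klc2, Kif3c and Kif3a, and Kif3a and Kif3b were the 4 pairs whose ranges did not.

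The mitotic kinesins were scarce. Their median of mean FPKM was 0.806, from 0.107 for Kif14 to 7.12 for Kif22, and 7 of 12 were below 1. For the 21 transport kinesins the median was 27.5, and 14 were at 10 or more. The 9 cilium and other kinesins had a median of 0.564. Kif2a, which depolymerizes microtubules and prunes axon branches, led them at 21.5. Kif26b, which lacks motor activity and acts in Wnt signalling, followed at 4.58. The groups overlapped, since the transport members Kif21b, Kif17 and Klc3 had 1.36, 1.12 and 0.355 FPKM.

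**Figure D1:**
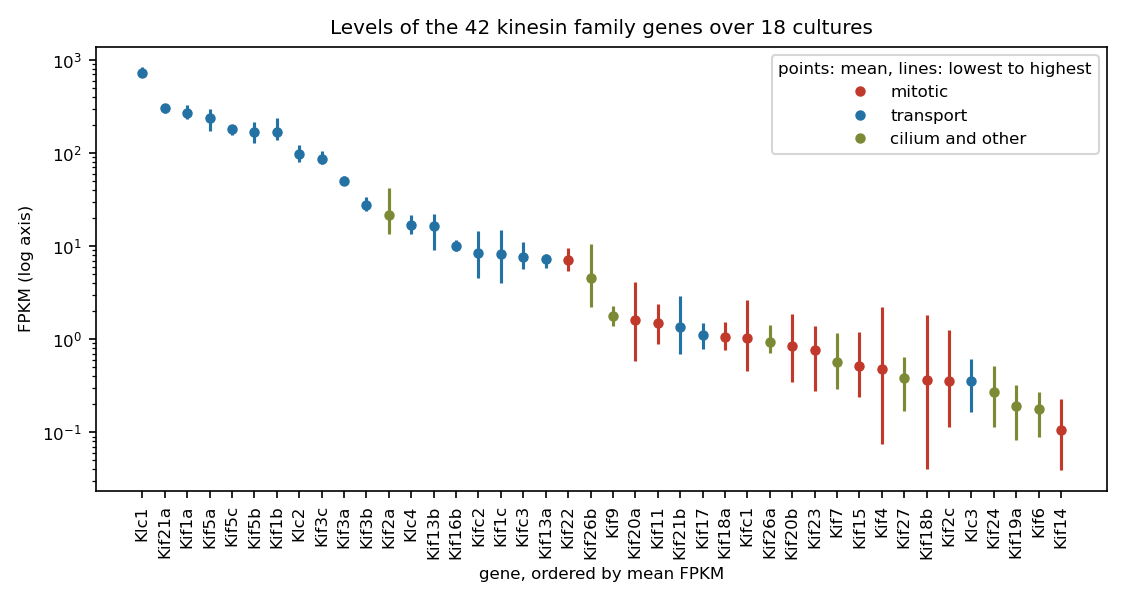
Mean FPKM of each of the 42 kinesin family genes over 18 cultures (points, log axis), with lines from the lowest to the highest culture and colours for role. Klc1 leads at 726 and Kif14 is last at 0.107, and the mitotic members all lie at or below Kif22 (7.12).

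With time in culture, mitotic kinesins rose in WT and transport kinesins changed little and in both directions. Between 12 and 48 h in WT, 25 of 42 members passed the threshold, 18 higher and 7 lower, where 47.1% of all genes tested passed (30.0% higher and 17.1% lower). Of the 12 mitotic kinesins, 9 rose and none fell (0), with a median log2 fold change of 1.34 over all 12. The 21 transport kinesins held 5 that rose and 6 that fell, with a median of -0.03, and the 9 others held 4 that rose and 1 that fell, with a median of 0.15. Over all 17198 genes the median was 0.11. On the deposited plain adjusted columns, which lack the equalized totals, it was 0.01. There 13 members were higher and 10 lower, so that 56.5% of the calls were higher in place of 72.0%. Of all genes, 24.3% were then higher and 21.9% lower. In bulk RNA, more cells of a type and more RNA per cell cannot be told apart.

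Kif18b, a kinesin-8 that trims astral microtubules and helps to position the spindle (chr11:102905529-102925124, GRCm38), showed the largest rise of the family. In WT its normalized counts were 10.3, 16.6 and 12.3 at 12 h, 17.8, 7.89 and 6.37 at 24 h, and 254, 144 and 58.2 at 48 h. In HET they were 5.52, 7.32 and 7.22 at 12 h, 12.3, 9.71 and 17.9 at 24 h, and 234, 69.2 and 19.3 at 48 h. All 6 cultures at 48 h lay above every culture of their genotype at 12 h, but within HET the spread at 48 h was more than 10-fold. From 12 to 48 h it rose by 3.23 (SE 0.67, limma adjusted p 0.000976) on the log2 scale in WT and 3.18 (SE 0.67, limma adjusted p 0.0135) in HET.

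Kif4, a chromokinesin that compacts chromosomes and organizes the central spindle (chrX:100625737-100727214), behaved alike in WT. WT cultures had 41.9, 27.2 and 28.5 at 12 h, 40.7, 36.6 and 40.4 at 24 h, and 439, 416 and 145 at 48 h. HET cultures had 17.4, 20.6 and 14.5 at 12 h, 59.1, 28.0 and 24.0 at 24 h, and 169, 104 and 22.9 at 48 h. The WT cultures at 48 h were all above every earlier culture, whereas HET replicate 3 at 48 h was below every HET culture at 24 h and just above those at 12 h. From 12 to 48 h the log2 change was 3.19 (SE 0.56, limma adjusted p 0.000306) in WT and 2.04 (SE 0.56, limma adjusted p 0.0275) in HET. Kif4 exons overlap those of Pdzd11 on the opposite strand, and whether counting used strand is not given in the sources used here.

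Kif2c, a kinesin-13 that removes faulty attachments of microtubules to centromeres (chr4:117159639-117182639), had counts of 13.2, 16.8 and 15.7 at 12 h, 21.5, 22.7 and 25.3 at 24 h, and 145, 98.7 and 69.1 at 48 h in WT. The HET counts were 16.8, 21.8 and 13.8 at 12 h, 43.0, 16.5 and 32.6 at 24 h, and 80.7, 58.6 and 32.6 at 48 h. At 48 h both genotypes lay above their 12 h cultures without overlap. The rise was 2.64 (SE 0.37, limma adjusted p 7.3e-05) on the log2 scale in WT and 1.59 (SE 0.37, limma adjusted p 0.0173) in HET.

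Kif20a brings the chromosomal passenger complex to the central spindle before cytokinesis. Its counts in WT were 127, 123 and 101 at 12 h, 156, 167 and 182 at 24 h, and 607, 566 and 388 at 48 h. Those in HET were 138, 86.0 and 167 at 12 h, 199, 164 and 200.0 at 24 h, and 398, 356 and 141 at 48 h. WT at 48 h stood clear of all earlier WT cultures, and in HET replicate 3 at 48 h lay among the 12 h cultures. Its change was 2.12 (SE 0.31, limma adjusted p 9.2e-05) (log2) in WT and 1.11 (SE 0.31, limma adjusted p 0.031) in HET. Its exons overlap those of Cdc23 on the opposite strand.

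Kifc1, a kinesin-14 that walks toward the slow-growing end and focuses spindle poles (chr17:33875659-33890661), was the mitotic member already higher at 24 h in WT. WT counts were 43.7, 56.6 and 61.1 at 12 h, 103, 100.3 and 114 at 24 h, and 197, 257 and 139 at 48 h. HET counts were 56.9, 50.8 and 48.5 at 12 h, 108, 86.6 and 82.0 at 24 h, and 127, 77.9 and 77.8 at 48 h. In WT the 3 times did not overlap, and in HET the 24 and 48 h cultures did. From 12 to 48 h the log2 change was 1.83 (SE 0.24, limma adjusted p 4.76e-05) in WT and 0.81 (SE 0.24, limma adjusted p 0.0371) in HET, and from 12 to 24 h it was 0.97 (SE 0.24, limma adjusted p 0.0383) in WT and 0.81 (SE 0.24, limma adjusted p 0.0282) in HET. Kifc5b, a near copy of Kifc1, stood at 57.6, 66.3 and 84.9 at 12 h and 93.1, 73.4 and 89.6 at 48 h in WT. How reads were divided between the 2 genes is not given in the sources used here, so the split between them is uncertain.

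**Figure D2:**
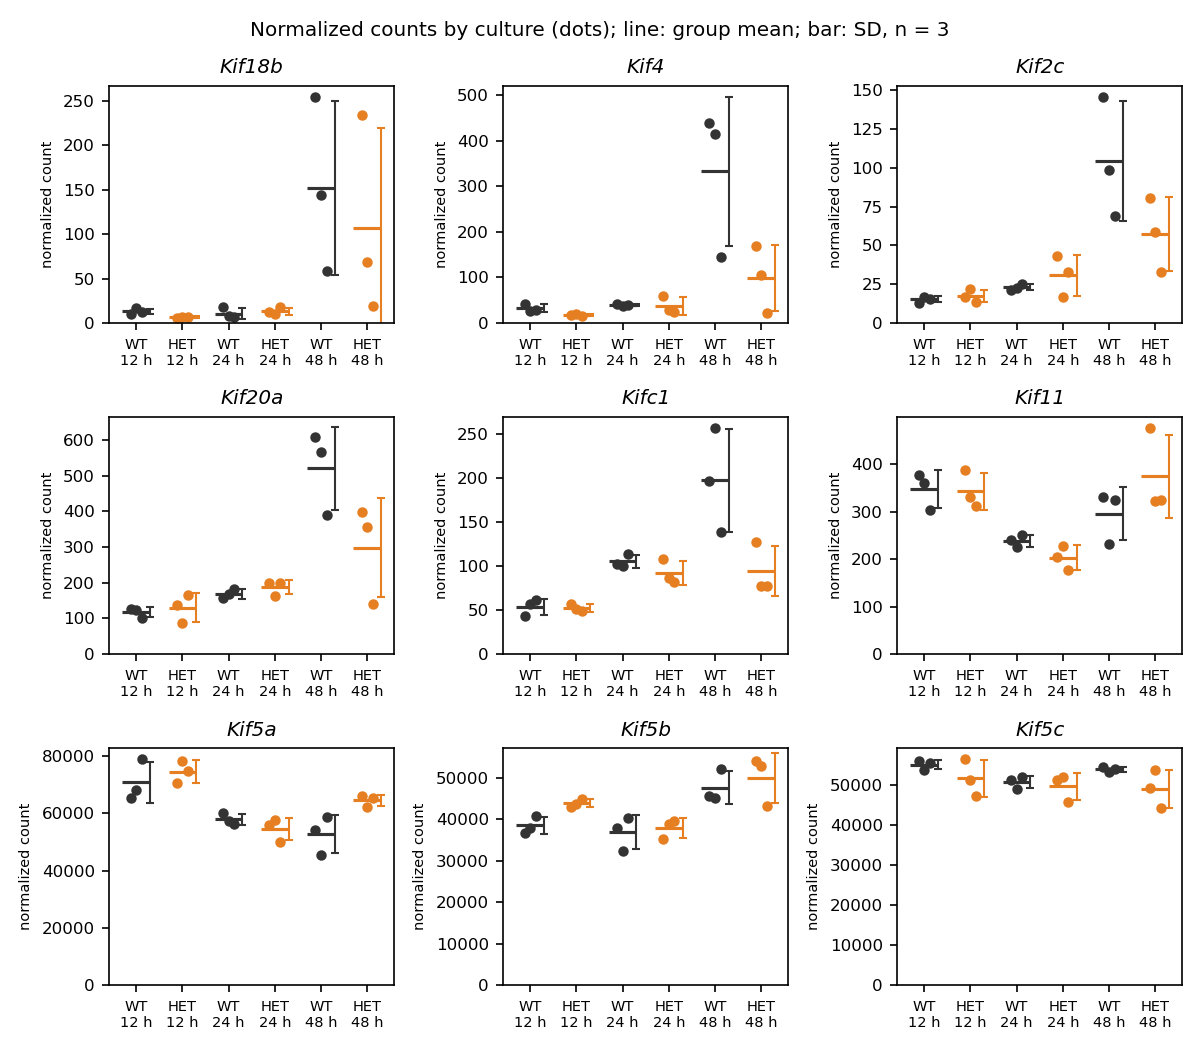
Normalized counts of 9 kinesin genes in each culture (dots; black WT, orange HET), with group means (lines) and SD (bars, n = 3); each panel starts at 0 on its own scale. Kif18b, Kif4, Kif2c, Kif20a and Kifc1 reach their highest WT values at 48 h, as does Kif5b with a smaller rise, while Kif11, Kif5a and Kif5c show no such rise.

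The other mitotic members moved less. Kif20b, a cytokinesis motor, rose by 1.65 (log2) in WT, Kif14, which recruits citron kinase to the midbody, by 1.03, Kif15, which helps to keep the spindle bipolar, by 0.94, and Kif18a, which damps chromosome movement at metaphase, by 0.78. Kif18a exons overlap those of Mettl15 on the opposite strand. Kif11 pushes spindle poles apart and is also made in neurons. It did not pass in WT, at -0.24 (SE 0.18, limma adjusted p 0.274). Neither did Kif22, a chromokinesin (0.25 (SE 0.18, limma adjusted p 0.27)), nor Kif23, the motor of centralspindlin (0.29 (SE 0.29, limma adjusted p 0.433)). Kif11 was 378, 361 and 303 at 12 h, 241, 225 and 251 at 24 h, and 331, 231 and 324 at 48 h in WT, so the 24 h cultures were below every 12 h culture and those at 48 h overlapped them. After quantile normalization its fall of 0.48 from 12 to 48 h passed in WT (limma adjusted p 0.0323). The mitotic split was then 8 higher and 1 lower, where 24.2% of all genes were higher and 20.3% lower. In 9 of the 12 mitotic kinesins (75%), the WT cultures at 48 h were above every WT culture at 12 h, where 34.6% of all genes were. These are the same 9 that passed, on the same values, so the separation adds no separate support.

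The calls for Kif18b, Kif4, Kif2c, Kif20a, Kifc1, Kif20b and Kif18a held in WT under every alternative run. Kif15 lost its call on the plain adjusted columns (0.83, limma adjusted p 0.0562), after quantile normalization (0.77, 0.0633), and without WT replicate 1 at 12 h (0.77, 0.116), WT replicate 2 at 12 h (0.88, 0.0869) or WT replicate 1 at 48 h (0.65, 0.165). Kif14 lost it without WT replicate 1 at 48 h (0.83, 0.0816), and Kif22 gained a call there (0.46, 0.0446).

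In HET the same interval gave fewer calls. Of 42 members, 9 rose and 1 fell, against 14.2% of all genes (10.6% higher and 3.62% lower). Of the 12 mitotic kinesins, 6 rose (Kif18b, Kif4, Kif2c, Kif20b, Kif20a and Kifc1) and none fell (0). The median over the 12 was 0.72, all 12 differences were positive, and the median of all genes was 0.10. Kif20b rose by 1.18 (log2). Kif18a, at 0.42 (SE 0.15, limma adjusted p 0.0662), did not pass, although its 48 h and 12 h cultures did not overlap, and it passed without HET replicate 3 at 48 h as given below. That a gene passed in 1 genotype and not in the other does not show a difference between genotypes, and the test of that difference is given below.

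The HET count rested on single cultures. Without HET replicate 3 at 48 h, 16 members passed, 8 of them mitotic, and 28.4% of all genes. The 6 added were the mitotic Kif15 (1.01, limma adjusted p 0.0228) and Kif18a (0.49, 0.03), Kif24, and the transport kinesins Kif5b, Kifc2 and Kif13b (-0.59, 0.0107). Among mitotic members called with and without it, Kif18b was then at 4.07 (limma adjusted p 0.000272), Kif4 at 2.87 (0.000414) and Kif20a at 1.58 (0.000428). Without HET replicate 1 at 48 h, HET replicate 2 at 48 h or HET replicate 2 at 12 h it was 0, as it was for all genes (0%), and without HET replicate 1 at 12 h it was 4 (6.53% of all genes). On the plain adjusted columns 5 mitotic kinesins passed in HET, without Kifc1, and after quantile normalization 4, without Kif4 and Kifc1. Of all genes, 5.81% rose on those columns and 4.96% after quantile normalization. A fit of the 6 HET cultures alone also gave 0 members, and 0% of all genes. At an unadjusted p under 0.05, 14 of 42 members and 5499 of 17198 genes passed in the fit to 18 samples. Of the members, 13 did so in each of the 3 fits that called none, and 15 with the 6 HET cultures alone. The counts over all genes at that p are not given for these other fits.

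Averaged on the log2 scale over the 12 mitotic kinesins, the level relative to the mean of WT at 12 h was 1.77, 1.51 and 1.14 in the WT cultures at 48 h. In the HET cultures at 48 h it was 1.45, 0.99 and 0.25, and the last of these is replicate 3. At 24 h all 6 cultures lay between 0.00 and 0.21. The same average over the 21 transport kinesins stayed between -0.10 and 0.08 in all 18 cultures.

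**Figure D3:**
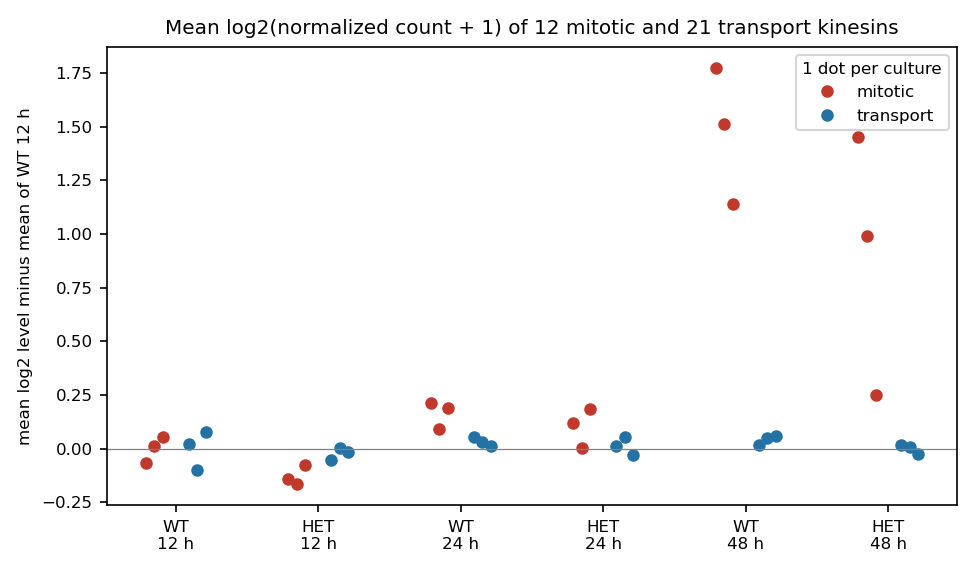
Mean log2(normalized count + 1) of the 12 mitotic and 21 transport kinesins in each culture, minus the mean of the WT cultures at 12 h; each dot is 1 culture. Mitotic kinesins reach 1.14 to 1.77 in WT and 0.25 to 1.45 in HET at 48 h, while transport kinesins stay between -0.10 and 0.08.

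The mitotic and transport kinesins also differed in the bases around their start sites. Promoters of 33 of the 42 members were found in RefSeq (37 promoters, GRCm38.p6), each spanning 250 bases before to 50 bases after the annotated start. A pair of short motifs known from cell cycle promoters was searched on both strands, the core of the cell cycle homology region (TTTGAA or TTCGAA) and the CCAAT box (CCAAT). They do not overlap each other. The homology core was present in 10 of 11 mitotic promoters (90.9%), 1 of 16 transport promoters (6.25%, that of Kif1a) and 3 of 10 other promoters (Kif24, Kif26b and Kif27), against 19.2% of all 32851 promoters of the table. CCAAT was present in 7 of 11 mitotic promoters (63.6%), 6 of 16 transport promoters (37.5%) and 37.4% of all promoters. Kif18a was the mitotic promoter without the core. A match is a string of letters and not a measured binding site.

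The 4 mitotic promoters below belong to genes that moved most in WT and have a RefSeq entry, and 2 transport promoters are shown for contrast. Each covers 125 bases before to 25 bases after the start, 5′ to 3′ on the gene's strand, and capitals mark the motif matches on either strand (TTCAAA and ATTGG are the reverse forms of TTTGAA and CCAAT). They lie at chr11:102925100-102925249 (minus strand), chrX:100625940-100626089 (plus), chr4:117178748-117178897 (minus), chr17:33890609-33890758 (minus), chr2:49619161-49619310 (plus) and chr11:70700423-70700572 (plus).
Kif18b: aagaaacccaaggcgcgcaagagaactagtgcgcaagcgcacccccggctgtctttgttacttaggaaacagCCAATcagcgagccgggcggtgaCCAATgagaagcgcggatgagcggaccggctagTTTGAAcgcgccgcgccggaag
Kif4: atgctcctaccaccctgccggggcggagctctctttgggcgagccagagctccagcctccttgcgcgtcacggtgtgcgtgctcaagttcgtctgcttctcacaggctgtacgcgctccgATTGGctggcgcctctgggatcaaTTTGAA
Kif2c: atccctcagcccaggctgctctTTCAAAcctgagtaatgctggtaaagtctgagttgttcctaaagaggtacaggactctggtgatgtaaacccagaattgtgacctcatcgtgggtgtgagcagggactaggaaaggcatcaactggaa
Kifc1: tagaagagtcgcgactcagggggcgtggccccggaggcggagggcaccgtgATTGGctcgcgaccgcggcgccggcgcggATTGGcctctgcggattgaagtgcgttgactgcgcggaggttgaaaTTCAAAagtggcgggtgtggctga
Kif5c: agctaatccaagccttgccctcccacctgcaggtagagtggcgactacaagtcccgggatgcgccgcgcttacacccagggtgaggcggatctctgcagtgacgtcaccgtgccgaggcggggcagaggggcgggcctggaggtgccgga
Kif1c: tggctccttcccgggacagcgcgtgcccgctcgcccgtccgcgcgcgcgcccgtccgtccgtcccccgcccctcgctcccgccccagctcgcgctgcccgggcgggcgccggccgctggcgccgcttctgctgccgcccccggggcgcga
In Kif18b, Kif4 and Kifc1 the homology core begins at bases 4, 20 and 2, counted from 1 at the start, with CCAAT in 1 or the other orientation upstream of it. In Kif2c it begins 103 bases before the start and no CCAAT was found in the 300-base window. That window lies inside the gene as positioned above, whose 5′ end is at chr4:117182639, so it may not be the main Kif2c promoter. The Kif4 window also lies inside its gene, which begins at chrX:100625737, so it may not be the main Kif4 promoter either. Neither motif occurs in the windows of Kif5c and Kif1c, although Kif1c rose with time as described below.

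Genes that work with mitotic kinesins were counted beside them. Of 26 such partners measured, 22 rose and none fell (0) between 12 and 48 h in WT, where 30.0% of all genes rose, with a median log2 fold change of 1.46. They include Cenpe, a kinetochore motor of the kinesin-7 class whose symbol lies outside the Kif names, at 1.99 (log2, limma adjusted p 0.000139), as well as Mki67, Top2a, Aurkb and Prc1. In HET 17 rose, where 10.6% of all genes did, and none fell (0), with a median of 1.13. On the plain adjusted columns 20 rose in WT and 13 in HET, where 24.3% and 5.81% of all genes rose. After quantile normalization 19 and 13 rose, where 24.2% and 4.96% of all genes did. The partners summed to 28.7 to 30.3 FPKM in WT at 12 h, 57.3 to 82.5 in WT at 48 h and 35.4 to 67.2 in HET at 48 h. Cenpe in HET at 48 h was 334, 253 and 139.8, lowest in replicate 3.

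Markers of other cell types were measured beside the mitotic kinesins. Of all genes, 30.0% rose and 17.1% fell between 12 and 48 h in WT, the interval of the marker counts below. Of 5 fibroblast markers, 3 rose in WT between 12 and 48 h (Col1a1, Col1a2 and Lum) and none fell (0). The sum over the 5 was 37.7 to 78.8 FPKM at 12 h and 90.7 to 134 FPKM at 48 h. Most of this rise was Col1a2, at 4.52 to 11.4 FPKM at 12 h and 34.6 to 67.4 at 48 h. Col1a2 in HET at 48 h was 10001, 7293 and 2342, again lowest in replicate 3. In FPKM that is 46.8, 34.2 and 11.0 of sums over the 5 markers of 129.3, 87.6 and 80.2. Without Col1a2, replicate 3 was therefore not the lowest of its group in the fibroblast sum. Of 6 glial markers, 1 rose (Erbb3) and 2 fell (Fabp7 and S100b), and their sum was 149.8 to 200.5 FPKM in WT at 48 h against 202 to 342 at 12 h. Of 4 endothelial markers 2 fell, of 4 macrophage markers 1 rose and 1 fell, and of 10 neuron markers 3 rose and 5 fell. The endothelial sum in WT was 52.1 to 66.3 FPKM at 12 h and 26.2 to 37.5 at 48 h. The macrophage sum in WT was 13.8 to 21.2 FPKM at 12 h and 35.9 to 73.7 at 48 h. At 48 h the macrophage sum in HET, 21.3 to 31.6 FPKM, lay below that in WT, while the sums of the other cell types overlapped between genotypes. The part of these cells in the rise of mitotic kinesins was not tested.

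Among transport kinesins, changes between 12 and 48 h in WT were mostly below 2-fold. The 5 that rose were Kif21b, Kif1c, Klc4, Kif5b and Kif16b, and the 6 that fell were Kifc2, Kif17, Kif13b, Kif5a, Klc2 and Kif1b. Their split depended on the scaling: on the plain adjusted columns 2 rose and 8 fell, and after quantile normalization 4 rose and 5 fell. Of all genes, 24.3% rose and 21.9% fell on the plain adjusted columns, and 24.2% and 20.3% after quantile normalization. The WT call of Kif16b, an endosome motor, at 0.22, was lost on the plain adjusted columns (0.11, limma adjusted p 0.314), after quantile normalization (0.16, 0.137), with only the 6 WT cultures (0.22, 0.105), with the covariates described for Kif1b below (0.22, 0.0611) and in 14 of the 18 fits that left out 1 culture. The call of Kif13b (-0.52) was lost in 14 of those 18 fits, with the highest adjusted p without WT replicate 1 at 48 h (-0.38, limma adjusted p 0.192). That of Kif17 (-0.53) was lost in 4 of them, and with only the 6 WT cultures (-0.53, limma adjusted p 0.0622). The 4 left out WT replicate 1 or 5 at 12 h or WT replicate 1 or 2 at 48 h (-0.49 to -0.46, 0.0602 to 0.0793). Kif17 exons overlap those of Sh2d5 on the same strand.

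The 3 kinesin-1 heavy chains went different ways. Kif5a, the neuron-specific chain that also moves neurofilaments (chr10:127225696-127263348), had 65225, 68214 and 78876 at 12 h, 60141, 57190.5 and 56219.6 at 24 h, and 54079, 45500.1 and 58845 at 48 h in WT. In HET it had 70491, 78334 and 74919.6 at 12 h, 55819, 57716 and 50118 at 24 h, and 65969, 62225 and 65304 at 48 h. WT cultures at 24 and 48 h were all below those at 12 h, while HET cultures were lowest at 24 h. On the log2 scale the change at 48 h was -0.43 (SE 0.10, limma adjusted p 0.00234) in WT and -0.21 (SE 0.10, limma adjusted p 0.157) in HET, and at 24 h it was -0.29 (SE 0.10, limma adjusted p 0.104) in WT and -0.45 (SE 0.10, limma adjusted p 0.00587) in HET.

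Kif5b, the chain present in most cell types, had 36724, 37834 and 40881 at 12 h, 37778, 32303 and 40386 at 24 h, and 45494, 45114 and 52184 at 48 h in WT. HET cultures had 42998, 43562 and 44870.2 at 12 h, 35191, 38818 and 39616 at 24 h, and 54099, 52738 and 43076 at 48 h. WT at 48 h was above WT at 12 h in every culture, and in HET replicate 3 at 48 h lay among the 12 h cultures. The log2 change was 0.30 (SE 0.10, limma adjusted p 0.0214) in WT and 0.18 (SE 0.10, limma adjusted p 0.229) in HET, and without HET replicate 3 at 48 h it passed in HET at 0.29 (limma adjusted p 0.0417). The WT call was lost on the plain adjusted columns (0.20, limma adjusted p 0.0961), without WT replicate 1 at 12 h (0.27, 0.0699), without WT replicate 2 at 12 h (0.29, 0.0569) and without WT replicate 3 at 48 h (0.24, 0.0956).

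Kif5c, the other neuron-enriched chain (chr2:49619298-49774778), was the steadiest of the 3. WT cultures gave 56027, 53826 and 55669 at 12 h, 51368, 49182 and 52156 at 24 h, and 54609, 53253 and 54107 at 48 h. HET cultures gave 56546, 51379 and 47419 at 12 h, 51311, 52031 and 45947 at 24 h, and 49308, 53835 and 44225 at 48 h. In each genotype its 12 and 48 h groups overlapped, with log2 differences of -0.03 (SE 0.09, limma adjusted p 0.788) in WT and -0.08 (SE 0.09, limma adjusted p 0.568) in HET. Of the light chains, Klc2 fell in both genotypes, by -0.41 (log2) in WT and -0.26 in HET, Klc4 rose by 0.49 in WT, and Klc1 was at -0.03 (SE 0.08, limma adjusted p 0.788) in WT. Klc1 and Klc3 have exons that overlap Xrcc3 and Ercc2 on the opposite strand.

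The kinesin-3 motors of the axon were near their starting levels. Kif1a, which carries synaptic vesicle precursors and dense core vesicles (chr1:93015464-93101951), had 92414, 85776 and 110624 at 12 h, 95962, 108436 and 86136 at 24 h, and 79742, 79065 and 85508 at 48 h in WT. In HET cultures it had 93786, 87796 and 96107 at 12 h, 107159, 90917 and 82409 at 24 h, and 82027, 84536 and 86967 at 48 h. All 48 h cultures were below all 12 h cultures of their genotype, but the differences of -0.23 (SE 0.11, limma adjusted p 0.0974) in WT and -0.13 (SE 0.11, limma adjusted p 0.445) in HET did not pass. On the plain adjusted columns Kif1a passed in WT (-0.34, limma adjusted p 0.0443).

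Kif1b, whose forms carry mitochondria and synaptic vesicle precursors (chr4:149176319-149307693), had 74429, 73595 and 102334 at 12 h, 72101, 80823 and 66761 at 24 h, and 71450.0, 58953 and 66979 at 48 h in WT. Its HET values were 75984, 67898 and 75552 at 12 h, 74393, 73012 and 58641 at 24 h, and 67983, 69526 and 64566 at 48 h. WT replicate 5 at 12 h was the highest of the 18 cultures, and the 48 h cultures were all below those at 12 h in WT but not in HET. The change was -0.33 (SE 0.13, limma adjusted p 0.0427) in WT and -0.12 (SE 0.13, limma adjusted p 0.556) in HET. Its WT call did not hold without WT replicate 5 at 12 h (-0.17, limma adjusted p 0.247), without WT replicate 2 at 48 h (-0.25, 0.175) or WT replicate 3 at 48 h (-0.35, 0.0676), after quantile normalization (-0.26, 0.128), or when only the 6 WT cultures were fitted (-0.33, 0.0958). Its adjusted p was also above 0.05 without HET replicate 5 at 12 h (0.0506), HET replicate 2 at 48 h (0.0507) or WT replicate 1 at 24 h (0.0531), and with the 2 directions among samples that had been removed from the deposited values as covariates (0.0561).

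Kif1c, a kinesin-3 made in many cell types that moves dense core vesicles and integrins (chr11:70700548-70731964), had the lowest p of the transport kinesins that rose. WT counts were 2316, 1549 and 1544 at 12 h, 2087, 2259 and 2147 at 24 h, and 3755, 4136 and 2794 at 48 h. HET counts were 1387, 1126 and 1618 at 12 h, 2024, 2308 and 2544 at 24 h, and 2868, 2904 and 1795 at 48 h. Every 48 h culture was above every 12 h culture of its genotype. It rose by 0.99 (SE 0.20, limma adjusted p 0.000807) (log2) in WT and 0.85 (SE 0.20, limma adjusted p 0.0169) in HET. At 24 h it was 0.74 (SE 0.20, limma adjusted p 0.0162) in HET.

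Kif21b, a kinesin-4 that pauses microtubule growth (chr1:136131389-136177998), had 624, 318 and 344 at 12 h, 636, 536 and 291 at 24 h, and 1096, 1027 and 554 at 48 h in WT. HET cultures held 378, 293 and 304 at 12 h, 648, 440.0 and 266 at 24 h, and 677, 496 and 319 at 48 h. The 12 and 48 h groups overlapped in both genotypes, since WT replicate 1 at 12 h was above WT replicate 3 at 48 h. The log2 difference was 1.06 (SE 0.37, limma adjusted p 0.0272) in WT and 0.56 (SE 0.37, limma adjusted p 0.318) in HET. In WT the call was lost on the plain adjusted columns (0.95, limma adjusted p 0.0512), after quantile normalization (0.87, 0.0553), and without WT replicate 2 at 12 h (0.88, 0.104), WT replicate 5 at 12 h (0.94, 0.0887), WT replicate 1 at 48 h (0.88, 0.102) or WT replicate 2 at 48 h (0.93, 0.0991).

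Kifc2, a neuronal kinesin that walks toward the slow-growing end (chr15:76659858-76668196), had the largest fall of the transport group. In WT it was 1453, 1215 and 1241 at 12 h, 1138, 857 and 1192 at 24 h, and 591, 699 and 965 at 48 h. In HET it was 1325, 1904 and 1439.7 at 12 h, 761, 995 and 832 at 24 h, and 857, 1073 and 1199.8 at 48 h. Neither genotype overlapped between 12 and 48 h. The log2 fold change at 48 h was -0.82 (SE 0.19, limma adjusted p 0.00217) in WT and -0.57 (SE 0.19, limma adjusted p 0.0509) in HET, and at 24 h it was -0.84 (SE 0.19, limma adjusted p 0.00661) in HET. Without HET replicate 3 at 48 h the HET change at 48 h passed, at -0.68 (limma adjusted p 0.0212), as it did on the plain adjusted columns (-0.67, 0.0328) and after quantile normalization (-0.68, 0.0431). Its exons overlap those of Cyhr1 on the opposite strand.

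At 24 h few members had moved in WT. Kifc1 and Kif3b rose and none fell (0), 2 of 42 members where 3.62% of all genes passed (2.96% higher and 0.657% lower). Kif3b, a subunit of heterotrimeric kinesin-2, rose by 0.29 (log2, 6983, 7303 and 6905 at 24 h against 5640.3, 5835 and 5808 at 12 h). Both calls were lost on the plain adjusted columns, and when any 1 of the 6 WT cultures at 12 or 24 h was left out (0% to 1.15% of all genes passed in those fits). In HET at 24 h, 7 members rose and 4 fell, against 18.9% of all genes (13.1% higher and 5.76% lower). The mitotic members that rose were Kif18a, Kifc1 and Kif20b, and Kif11 fell by -0.76 (log2, 204, 229 and 177 at 24 h against 387, 332 and 312 at 12 h). The transport members that rose were Kif3c, Kif3b, Kif13a and Kif1c, and Kifc2, Kif5a and Klc2 fell. This count was 2 without HET replicate 2 at 12 h (6.63% of all genes), 6 without HET replicate 1 at 24 h (10.9%) and 5 without HET replicate 5 at 24 h (10.7%). The HET calls at 24 h of Kif18a, Kif3c and Klc2 were lost in 13, 14 and 14 of the 18 fits that left out 1 culture. No other of these calls was lost in more than 4 such fits.

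Adaptors that link kinesins to cargo changed in both directions. Of 31 listed, 30 were measured. Between 12 and 48 h in WT, 3 rose (Bicd2, Ykt6 and Zfyve27) and 9 fell, with a median of -0.09, where 30.0% of all genes rose and 17.1% fell. On the plain adjusted columns 2 rose and 13 fell, where 24.3% of all genes rose and 21.9% fell. After quantile normalization 2 rose and 10 fell, where 24.2% of all genes rose and 20.3% fell. The 9 that fell were Clstn1, Clstn2, Dennd4a, Fez1, Ppfia4, Rab27b, Rab3a, Spag9 and Trak1, which include calsyntenins and Spag9, partners of kinesin light chains, Rab3a, found on vesicles that kinesin-3 carries, and the mitochondrial adaptor Trak1. In HET none rose (0) and 3 fell (Clstn1, Ppfia4 and Rab3a), with a median of -0.05, where 10.6% of all genes rose and 3.62% fell. Kifap3, the accessory subunit of Kif3a and Kif3b, stood at 16435, 17275 and 16498 at 12 h and 17845, 16372 and 17423 at 48 h in WT, with overlapping groups. Between genotypes at 48 h none of the 30 passed (0), with a median of 0.06.

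Of the cilium and other kinesins, Kif24, Kif26b, Kif6 and Kif7 rose in WT between 12 and 48 h and Kif2a fell. Kif26b (chr1:178529125-178939200) was 875, 805 and 1075 at 12 h, 823, 767 and 828 at 24 h, and 3210.0, 2908 and 2516 at 48 h in WT. In HET it was 865, 868 and 916 at 12 h, 910.2, 683 and 776 at 24 h, and 3146, 2547 and 811 at 48 h. WT cultures at 48 h were more than 2-fold above all earlier ones, and HET replicate 3 at 48 h lay below every HET culture at 12 h while the other 2 lay far above. Its rise was 1.65 (SE 0.32, limma adjusted p 0.000601) (log2) in WT and 1.08 (SE 0.32, limma adjusted p 0.0349) in HET, and in HET without replicate 3 at 48 h it was 1.68 (limma adjusted p 1.76e-05). The HET call was lost on the plain adjusted columns (0.98, limma adjusted p 0.0558), after quantile normalization (0.98, 0.0567), in the fit of the 6 HET cultures alone (1.08, 0.165), and without any 1 of the other 5 of those cultures (0.70 to 1.11, 0.0615 to 0.189).

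Kif24 is a centriolar kinesin-13 that suppresses cilium assembly (chr4:41390745-41464887). WT cultures showed 34.6, 39.0 and 59.9 at 12 h, 40.0, 37.6 and 64.2 at 24 h, and 121, 118 and 108 at 48 h. HET cultures showed 26.3, 31.5 and 49.4 at 12 h, 60.2, 62.2 and 52.5 at 24 h, and 104, 86.8 and 39.4 at 48 h. WT at 48 h did not overlap any earlier WT culture, and HET replicate 3 at 48 h lay within the 12 h range. The log2 difference from 12 h was 1.40 (SE 0.34, limma adjusted p 0.00299) in WT and 1.02 (SE 0.34, limma adjusted p 0.0511) in HET, and without HET replicate 3 at 48 h the HET value was 1.44 (0.00285).

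Kif2a (chr13:106958996-107022126) was 3297, 3792 and 6476 at 12 h, 3552, 5103 and 3115 at 24 h, and 2476, 2075 and 2397 at 48 h in WT. It was 3549, 2840.3 and 3525 at 12 h, 3697, 3372 and 2459 at 24 h, and 2569, 2363 and 2925 at 48 h in HET. The WT cultures at 48 h were below all others of that genotype, and the HET groups overlapped. The difference was -0.91 (SE 0.22, limma adjusted p 0.0031) (log2) in WT and -0.33 (SE 0.22, limma adjusted p 0.31) in HET. WT replicate 5 at 12 h was high in Kif2a as it was in Kif1b. Kif2a exons overlap those of Dimt1 on the opposite strand.

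Kif6, a motor of motile cilia, rose by 0.78 (log2) in WT at low counts of 13.1 to 24.6 at 12 h and 22.5 to 39.4 at 48 h, which overlapped. Kif7, a ciliary regulator of hedgehog signalling, rose by 0.80, and its exons overlap those of Ticrr on the opposite strand. The Kif6 call was lost without WT replicate 1 at 12 h (0.75, limma adjusted p 0.0693), WT replicate 2 at 12 h (0.59, 0.133), WT replicate 2 at 48 h (0.62, 0.136) or WT replicate 3 at 48 h (0.73, 0.078), with the covariates named for Kif1b (0.77, 0.0523), with only the 6 WT cultures (0.78, 0.118) and on the plain adjusted columns (0.68, 0.0554). The Kif7 call was lost without WT replicate 5 at 12 h (0.51, 0.178), WT replicate 1 at 48 h (0.83, 0.059) or WT replicate 2 at 48 h (0.51, 0.194), after quantile normalization (0.64, 0.0566) and with only the 6 WT cultures (0.80, 0.0872).

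**Figure D4:**
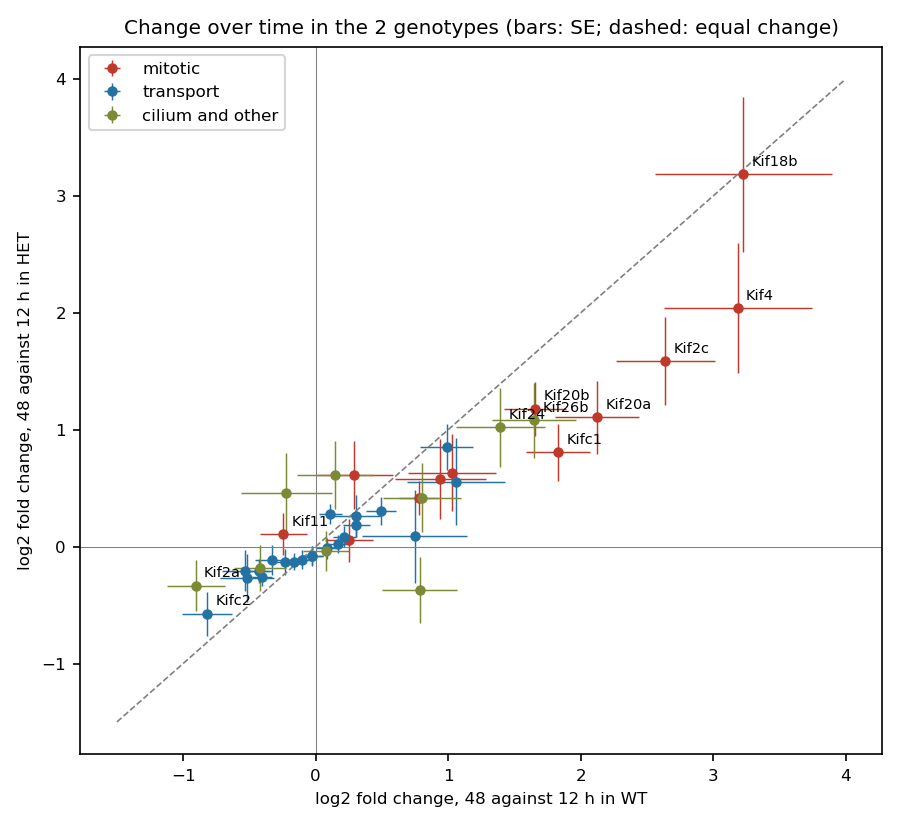
Log2 fold change from 12 to 48 h of each of the 42 members in WT (horizontal axis) and HET (vertical axis), with SE bars from limma; the dashed line marks equal change. Mitotic members reach 3.23 in WT, and most of those that rose lie below the line, while transport members cluster near 0.

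The change from 12 to 48 h was then compared directly between genotypes. No member passed for this difference (0 of 42, and 0% of all genes), 3 members and 1534 of all genes had an unadjusted p under 0.05, and the lowest adjusted p of a member was 0.548 with limma. Of the 12 mitotic kinesins, 10 had a smaller rise in HET, with a median difference of -0.38 on the log2 scale. The median over the transport kinesins was -0.05 and that over all genes -0.01. The 3 members were Kifc1 (-1.02), Kif20a (-1.02) and Kif6 (-1.16), and without HET replicate 3 at 48 h the values of Kifc1 and Kif20a were -0.90 and -0.55.

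Between genotypes at 48 h no member passed without the replicate block (0 of 42), nor did any other gene (0%). At an unadjusted p under 0.05 there were 10 of 42 members and 3782 of 17198 genes. Of the 12 mitotic kinesins 9 were lower in HET in their group means, with a median log2 difference of -0.52. The median was 0.04 for transport kinesins and -0.03 for all genes. The lowest p-values belonged to Kifc1, at -1.06 (SE 0.24, limma adjusted p 0.0516), Kif4, at -1.99 (SE 0.56, limma adjusted p 0.0687), and Kif5a, at 0.30 (SE 0.10, limma adjusted p 0.103). For Kifc1 all HET cultures at 48 h (77.8 to 127) were below all WT cultures (139 to 257). For Kif4 the groups overlapped, since WT replicate 3 (145) was below HET replicate 1 (169). For Kif5a all HET cultures (62225 to 65969) were above all WT cultures (45500.1 to 58845).

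Same-numbered cultures of the 2 genotypes at 48 h deviated together, with a correlation of at least 0.21 in each of the 3 pairs. With the replicate number as a block, 6 members passed, all lower in HET, where 10.4% of all genes passed. They were the mitotic kinesins Kif4 (limma adjusted p 0.00322 with the block), Kifc1 (0.011), Kif20a (0.0161) and Kif20b (0.0344), and the transport kinesins Kif21b (0.0143) and Kif1c (0.0437). Kif5a was at 0.0714 with the block. In the authors' deposited table at 48 h, 2 members had an adjusted p under 0.05, Kifc1 (log2 fold change -1.07, adjusted p 0.00593) and Kif4 (-1.75, 0.014), of 1028 genes in all.

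This comparison also moved with single cultures. Without WT replicate 3 at 48 h, 4 members and 5.41% of all genes passed in the fit without the block: Kif4 (-2.51, limma adjusted p 0.0289) and Kifc1 (-1.29, 0.0228) were lower in HET, and Kif5a (0.38, 0.048) and Kifc2 (0.68, 0.0464) were higher. Without HET replicate 1 at 48 h, Kif4 (-2.58, 0.0387) and Kifc1 (-1.29, 0.0387) passed with 4.28% of all genes, and without HET replicate 1 at 24 h Kifc1 did (-1.06, 0.0488) with 1.09%. Without HET replicate 3 at 48 h, the culture with the lowest mitotic level of its group, none passed (0), nor did any other gene (0%). The fit to all 18 samples had also called no gene. At an unadjusted p under 0.05 there were 6 members. The median of the mitotic kinesins was then -0.20 in place of -0.52, Kif4 was at -1.16 (0.326), Kif20a at -0.44 (0.514) and Kifc1 at -0.94 (0.251). HET replicate 3 was also the lowest of its group in Cenpe and Col1a2 as given above, but not in the fibroblast sum without Col1a2. The part of other cells in this difference was not tested. The 26 mitotic partners had a median of -0.52 between genotypes at 48 h, and none passed (0).

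**Figure D5:**
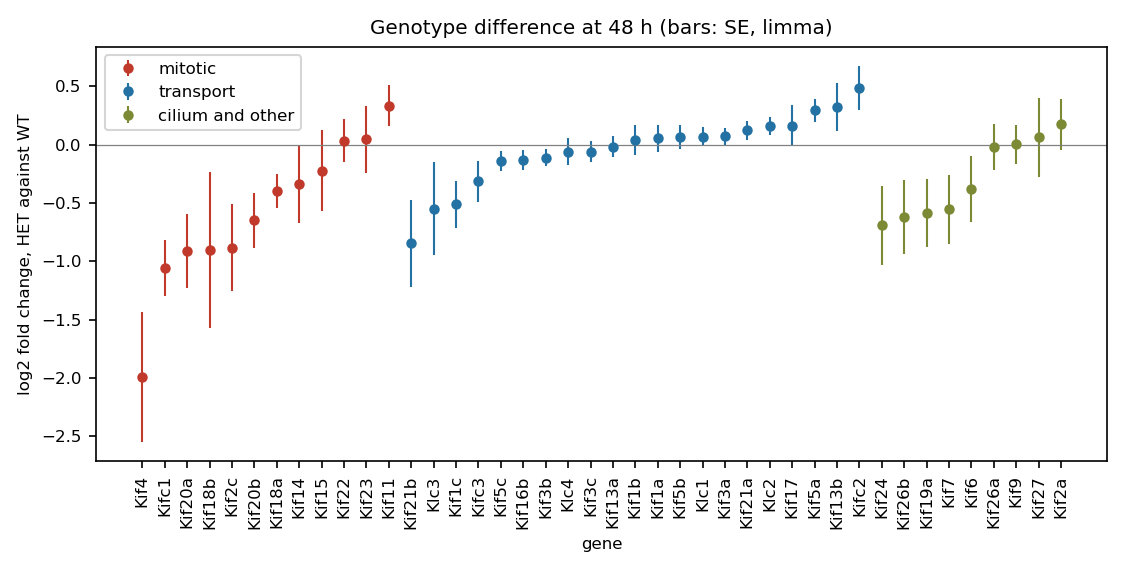
Log2 fold change of HET against WT at 48 h for each of the 42 members, ordered within role, with SE bars from limma. Kif4 (-1.99) and Kifc1 (-1.06) lie lowest and Kifc2 (0.49) highest, and none passed the threshold in the fit without the replicate block.

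Separation without overlap between genotypes at 48 h was found for 7 members. Kif18a, Kif20b, Kifc1, Kif19a and Kif24 were lower in every HET culture, 5 of 42 where 14.4% of all genes were, and Kif5a and Klc2 were higher in every HET culture, 2 of 42 where 9.57% of all genes were. Kif18a in HET was 179, 147 and 138 against 215, 205 and 189 in WT. Klc2 in HET was 11029, 11615 and 12166 against 10048, 10383 and 10754 in WT. At 48 h neither share of members (11.9% and 4.76%) was above that of all genes.

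At the earlier times no kinesin passed between genotypes. At 12 h it was 0 of 42 (all genes 0.00581%), with 3 members and 1447 of 17198 genes at an unadjusted p under 0.05. The count at 24 h was also 0 of 42 (all genes 0.00581%), with 1 member and 198 of 17198 genes at an unadjusted p under 0.05. The mitotic median was -0.02 at 12 h and -0.05 at 24 h, and the transport median 0.04 and -0.01. Groups that did not overlap were counted here too. At 24 h, 5 of 42 members (11.9%) were lower in every HET culture (Kif23, Kif17, Klc2, Kif19a and Kif6), where 2.79% of all genes were, and Kif18a and Kif9 were higher in every HET culture, 2 of 42 (4.76%) where 2.81% of all genes were. At 12 h, 3 were lower (Kif18b, Kif4 and Kif19a; 7.14%, all genes 8%) and 2 higher (Kif21a and Kif5b; 4.76%, all genes 7.07%). Only Kif19a was lower in every HET culture at each of the 3 times, and how many of all genes were so was not counted. Klc2 and Kif18a separated in opposite directions at 24 and 48 h.

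Averaged over the 3 times no member passed (0 of 42, all genes 0.0174%). At an unadjusted p under 0.05 there were 5 members and 2315 of 17198 genes. The largest averaged differences were Kif4 at -1.01 (SE 0.32, limma adjusted p 0.31) and Kif19a at -0.80 (SE 0.17, limma adjusted p 0.31). Kif19a, which shortens cilia, had counts in HET of 11.7, 15.7 and 18.2 at 12 h, 15.4, 22.0 and 22.2 at 24 h, and 18.7, 24.4 and 28.1 at 48 h. In WT it had 42.2, 30.5 and 25.5 at 12 h, 36.2, 27.6 and 38.5 at 24 h, and 32.9, 29.8 and 46.0 at 48 h. Every HET culture was below every WT culture of its time, at counts that were low throughout. Kif19a was named after its values were seen.

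The comparisons over time within a genotype share their 12 h cultures, and those between genotypes at 48 h share cultures with both. Each value above is therefore that of its own comparison, and similar lists of members across them are not independent. The replicates are biological repeats per the series' design, and how they were obtained from mice is not stated in the labels.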

How the data were processed

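RNA-seq of 18 DRG neuron cultures was analysed from 1 deposited table of 17198 genes. Per the submitters' processing notes, CASAVA 1.8.2, edgeR and the build mm10 were used; the aligner, counter and annotation are not given in the sources used here. Per the file headers, the authors deposited normalized counts (a signal with no whole number and no 0), FPKM, log2 fold changes, p-values and adjusted p-values, and 18 unlabelled plain adjusted signal columns (totals 39465712 to 44213485). A further 24 per-sample log-ratio columns were not used. The deposited signal values spanned 15 of 17 possible dimensions among samples, so 2 directions had been removed, of which group explained 19.5%. Raw depth is therefore unknown, and no interval or floor from counts is given.

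Groups and replicate numbers came from the sample titles. Values were transformed to log2(normalized count + 1), a scale that understates changes of low genes. The filter was a mean of 1 or more. It took out 0 genes, so all 42 members were tested. One coefficient per group was fitted to 18 samples with limma 3.58.1 in R 4.3.3 (lmFit, eBayes with a trend; residual degrees of freedom 12, prior 5). Benjamini-Hochberg adjustment ran over all genes within each of 9 comparisons, with a threshold of 0.05, and every adjusted p of the report is from this test unless the authors' table is named. SEs are limma's. The fit was tested on simulated data.

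Members named with all their values are the 3 with the lowest p between genotypes at 48 h, up to 4 mitotic and 6 other members with the largest called change in WT, and Kif5a, Kif5b, Kif5c, Kif1a and Kif1b. The members, the lists of roles, partners, adaptors and markers, and the motifs were chosen with earlier results of these data known. Some glial markers of the list are not reported here. All 42 members have a gene record in GENCODE for GRCm38, from which gene positions were taken; 10 have exons that overlap another protein-coding gene, and Kif11 carries 2 Ensembl IDs. Promoters came from RefSeq (GRCm38.p6); the 9 members not matched were Kif13b, Kif19a, Kif20a, Kif21b, Kif5a, Kif5b, Kifc2, Kifc3 and Klc2.

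Pairing by replicate number was checked through the correlation of deviations from group means. Same-numbered pairs at 1 time gave r from -0.21 to 0.46. At 48 h every pair was over 0.1, so the blocked value stands beside that comparison. At 12 and 24 h, and across times, cultures share only a number. The block was a single factor over all 18 samples, so it also tied such cultures. Alternatives were the block, pseudocounts of 0.1 and 10, no filter, a minimum mean of 10, quantile normalization, the plain adjusted columns, the compared samples only, and leaving out each sample; the removed directions as covariates were added after seeing the data. Calculations also used Python 3.11.15, pandas 2.3.3 and matplotlib 3.10.9.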

Additional observations from a re-analysis of the deposited data

How the results depend on the processing

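DESeq2 was left out because no raw counts were used, and leaving out the filter changed nothing, because it had removed 0 genes. With the replicate block, the number of kinesin family members called went from 0 to 6 between genotypes at 48 h, from 0 to 2 for the average over times (Kif19a, limma adjusted p 0.0382, and Kif4, 0.0283, both lower in HET; 1.19% of all genes), from 2 to 4 for 24 against 12 h in WT (7.08%) and from 10 to 19 for 48 against 12 h in HET (29.6%). Over all 9 same-numbered pairs the mean r was 0.17, 7 were over 0.1, and 14 of 18 samples correlated best with their own number. The block moved no other count by more than 1.5 times. It ended the calls of Kif1b (-0.32, limma adjusted p 0.0804) and Kif6 (0.79, 0.0572) for 48 against 12 h in WT, and among members whose HET value missed the threshold for that interval it gave calls to Kif18a (0.47, 0.0346), Kif24 (1.42, 0.00285) and Kifc2 (-0.73, 0.00663), among others. Between genotypes at 48 h, a pseudocount of 10 gave 1 member (0.843% of all genes) and a minimum mean of 10 gave 1 (0.942%), Kifc1 both times. For 24 against 12 h in WT, the plain adjusted columns gave 0 (2.52% of all genes) and the compared samples only gave 1 (4.88%). For 48 against 12 h in HET, quantile normalization gave 6 (9.28% of all genes) and the compared samples only gave 0 (0%). With 1 sample left out the count ran from 18 to 25 for 48 against 12 h in WT, 0 to 16 for 48 against 12 h in HET, 0 to 3 for 24 against 12 h in WT, 2 to 11 for 24 against 12 h in HET, 0 to 4 between genotypes at 48 h, and 0 to 0 at 12 h, at 24 h, for the average and for the difference in time course. A group left with 2 samples was still fitted, on the spread pooled over all groups. For the 16 named members no called value reversed under any alternative. The causes of these changes were not tested, beyond the smaller number of samples or genes in some fits. The unknown depth and 3 cultures a group limit what could be seen in the low mitotic kinesins.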
